A study of Mus musculus with 18 samples.

Results

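The glucagon, cAMP and FOXO regulators of gluconeogenesis described here are 10 mouse genes: Gcgr, Creb1, Crtc2, Sik1, Nr4a1, Cebpb, Ppargc1a, Klf15, Foxo1 and Foxo3. They were chosen by symbol for their known roles, with earlier results of these data known. Each symbol matched 1 Ensembl gene among the 28030 in the deposited table. All 10 passed the filter on low counts, which 12477 of the 28030 genes passed. Their RNA was followed in liver cells from both ends of the lobule, fed and after fasts of 8 h and 24 h. By its title, the series asks how gluconeogenic gene expression is divided between the zones and how that division shifts with feeding.

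All libraries came from wild-type C57BL/6J male mice, 12 weeks old, on normal chow. Hepatocytes of the pericentral zone (around the central vein, where blood leaves the lobule) or of the periportal zone (where blood enters it) were collected after digitonin perfusion, a detergent step that opens the cells of the opposite zone. Each zone was sampled in 3 feeding states with 3 libraries each, giving 6 groups and 18 libraries. For 3 days all mice had been trained to eat in an 8 h daytime window and to fast for 16 h. Fed mice had eaten for 4 h with 20% sucrose in the drinking water and were killed at clock hour 13. Food and sucrose were removed from the others at that hour, and they were killed at clock hour 21 (8 h fast) or, a day after the fed mice, at clock hour 13 (24 h fast). In the comparisons of 8 h with fed and of 24 h with 8 h, time of day and fasting cannot be told apart. Nothing in the labels says that the 3 libraries of a group came from separate mice, so the p-values measure the spread between these libraries, which may be partly technical.

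Glucagon is the hormone of fasting: it binds its receptor (Gcgr) on the hepatocyte, and the resulting cAMP activates protein kinase A. The kinase phosphorylates CREB (Creb1) and restrains the salt-inducible kinases, of which SIK1 is one, so that the coactivator CRTC2 enters the nucleus and joins CREB on target genes. Early targets such as Nr4a1, Cebpb, Sik1 and Ppargc1a encode regulators of the next step, SIK1 acting as a brake on CRTC2. PGC-1alpha (Ppargc1a) then works with nuclear receptors and with FOXO1, which insulin keeps out of the nucleus in the fed state, on the genes of gluconeogenesis such as Pck1 and G6pc. KLF15 raises genes of amino acid breakdown, which feeds the same pathway. Much of this control acts on proteins and was not measured here, where only RNA was.

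CREB binds the cAMP response element TGACGTCA or the shorter core TGACG, and FOXO proteins bind GTAAACA. These letters were searched on both strands of the 250 bases before the RefSeq start of each gene (build GRCm38.p6). Of the 10 regulators, 8 had an entry in the RefSeq table. The core was present in 5 of the 8 windows and in 17.8% of 32851 windows of the same length. The full element was in 0 of 8 windows (1.55% of all), and the FOXO letters were in 0 of 8 (3.17% of all). The full element contains the core, so a match to the first is also a match to the second. The windows below are those of 3 regulators that rose after 24 h in both zones (Ppargc1a, Cebpb and Klf15) and of Nr4a1, the one with the most cores. Capitals mark the core, read as TGACG on the strand of the gene or as CGTCA where it lies on the opposite strand.
Ppargc1a, chr5:51567726-51567975, minus strand: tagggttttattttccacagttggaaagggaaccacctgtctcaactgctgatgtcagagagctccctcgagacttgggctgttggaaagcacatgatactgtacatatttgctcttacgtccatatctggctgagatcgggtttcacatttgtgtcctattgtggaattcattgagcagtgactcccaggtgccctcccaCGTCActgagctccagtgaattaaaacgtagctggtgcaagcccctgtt
Cebpb, chr2:167688665-167688914, plus strand: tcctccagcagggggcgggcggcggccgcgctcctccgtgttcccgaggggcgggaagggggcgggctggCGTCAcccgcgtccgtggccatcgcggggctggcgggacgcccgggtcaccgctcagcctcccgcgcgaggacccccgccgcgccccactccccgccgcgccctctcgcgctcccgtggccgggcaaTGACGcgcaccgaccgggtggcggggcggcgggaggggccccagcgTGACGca
Klf15, chr6:90462326-90462575, plus strand: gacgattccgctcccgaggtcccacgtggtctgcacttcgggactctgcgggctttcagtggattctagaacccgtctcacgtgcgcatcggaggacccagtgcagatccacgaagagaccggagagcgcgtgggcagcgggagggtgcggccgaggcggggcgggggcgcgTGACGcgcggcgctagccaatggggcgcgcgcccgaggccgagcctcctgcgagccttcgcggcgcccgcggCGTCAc
Nr4a1, chr15:101266596-101266845, plus strand: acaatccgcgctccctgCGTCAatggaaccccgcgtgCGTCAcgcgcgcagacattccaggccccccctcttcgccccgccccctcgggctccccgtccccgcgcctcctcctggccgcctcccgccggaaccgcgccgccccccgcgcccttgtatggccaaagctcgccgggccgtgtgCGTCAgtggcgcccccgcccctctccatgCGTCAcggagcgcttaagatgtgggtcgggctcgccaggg
The single Ppargc1a core began 49 bases before the start, on the opposite strand. Cebpb had 3, beginning 180, 53 and 7 bases before the start, and Klf15 had 2, at 78 and 6 bases. Nr4a1 had 4, at 233, 213, 69 and 40 bases, all on the opposite strand. The window of Nr4a1 lies inside the annotated span of that gene, before an internal start, and outside its annotated exons. Foxo3 had 1 core, 64 bases before its start, while the windows of Gcgr, Creb1 and Foxo1 had 0. A match is a description of the letters and was not tested for binding.

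Libraries held 1.84e+07 to 2.64e+07 estimated counts. Levels are CPM, the counts of a gene scaled to a common total per library, and a call is an adjusted p under 0.05 in the quasi-likelihood F test of edgeR over all genes tested. The labelled zones matched their markers: the summed level of 4 periportal markers (Cyp2f2, Hal, Gls2 and Sds) was 278 to 1793 CPM in pericentral and 3134 to 5413 CPM in periportal libraries. The highest pericentral value was that of replicate 2 of the 24 h fast, against 869 and 806 CPM in its 2 fellows, and the pericentral 24 h changes of the regulators are given without it too. The summed level of 4 pericentral markers (Cyp2e1, Cyp1a2, Glul and Oat) was 9305 to 18314 CPM in pericentral and 420 to 2044 CPM in periportal libraries. Periportal 24 h replicate 1 had 2044 CPM, against 1175 and 561 CPM in its fellows, and periportal fed replicate 2 had 1508 CPM, against 536 and 420 CPM. As for other cells, 8 Kupffer and leukocyte markers summed to 0.558 to 22.4 CPM. The 5 bile duct markers summed to 19.3 to 37.6 CPM in pericentral and 32.8 to 56.7 CPM in periportal libraries, the periportal ones being higher in every state without overlap. Of these 5, Krt7, Sox9 and Spp1 were present in all 18 libraries, Krt19 reached 0.506 CPM and Epcam was at 0 in all 18. The part of these cells in the zone differences was not tested. Albumin (Alb) had 40028 to 159562 CPM. The summed clock genes had 172 to 272 CPM after 8 h and 347 to 547 CPM in the groups killed at clock hour 13. Their part in the comparisons of the 8 h fast with fed and with the 24 h fast was not tested.

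**Figure D1:**
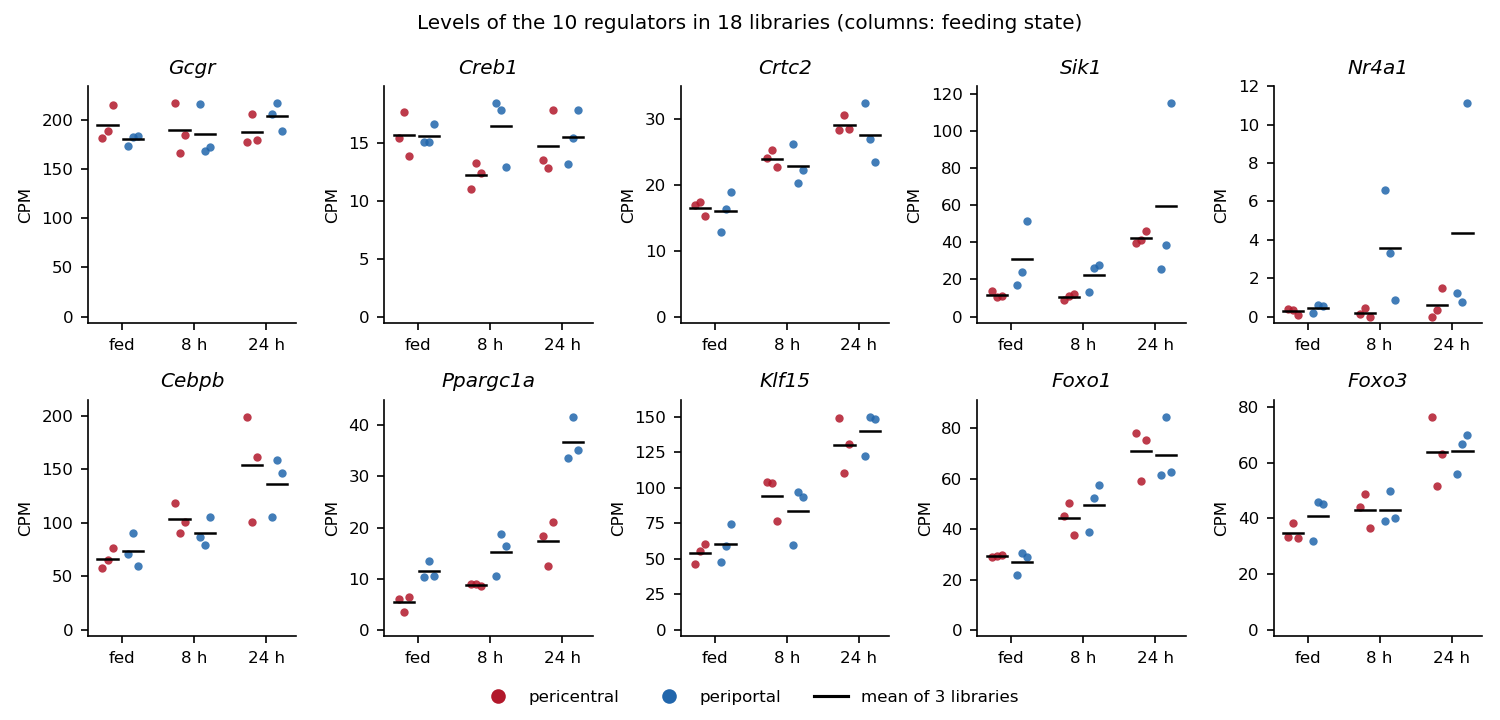
CPM (vertical axes, linear from 0) of each of the 10 regulators in the 18 libraries, by feeding state (horizontal axes), in pericentral (red) and periportal (blue) hepatocytes. Each point is 1 library and each bar the mean of 3. Gcgr stays between 166 and 217 CPM, Foxo1, Klf15 and Crtc2 climb in both zones, and the periportal points of Ppargc1a after 24 h (33.5 to 41.7 CPM) lie above all others.

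After 24 h of fasting 7 of the 10 regulators were higher than in the fed state in pericentral cells (10.8% of all genes tested were called higher) and 6 of 10 in periportal cells (9.59%). The 6 called higher in both zones were Crtc2, Cebpb, Ppargc1a, Klf15, Foxo1 and Foxo3, compared with 734 genes or 5.88% of those tested. The seventh pericentral call was Sik1. None of the 10 was called lower in any comparison. In such bulk libraries fewer cells of a type and less RNA per cell cannot be told apart. The median change of the 10 was 1.14 on the log2 scale in pericentral and 0.92 in periportal cells, beside medians of 0.01 and −0.00 over all genes tested. Without pericentral 24 h replicate 2 the same 7 regulators were called in pericentral cells, with log2 changes of 0.78 for Crtc2, 1.87 for Sik1, 1.43 for Cebpb, 1.86 for Ppargc1a, 1.37 for Klf15, 1.38 for Foxo1 and 0.999 for Foxo3 (adjusted p from 0.000106 to 0.0422, edgeR). Both fasts are compared with the same fed libraries, so the 8 h and 24 h changes of a gene are not independent.

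After 8 h fewer had moved. Crtc2, Klf15 and Foxo1 were higher in pericentral cells, 3 of 10 beside 7.27% of all genes, and Crtc2 and Foxo1 in periportal cells, 2 of 10 beside 7.56%. Crtc2 and Foxo1 were thus higher in both zones, as were 552 genes (4.42%). Between 8 h and 24 h, 4 regulators rose further in pericentral cells (Sik1, Ppargc1a, Foxo1 and Foxo3, beside 5.2% of all genes) and 3 in periportal cells (Ppargc1a, Klf15 and Foxo3, beside 3.22%). The number called between 8 h and 24 h in pericentral cells was the least stable count, falling to 0 in some fits with 1 library left out.

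**Figure D2:**
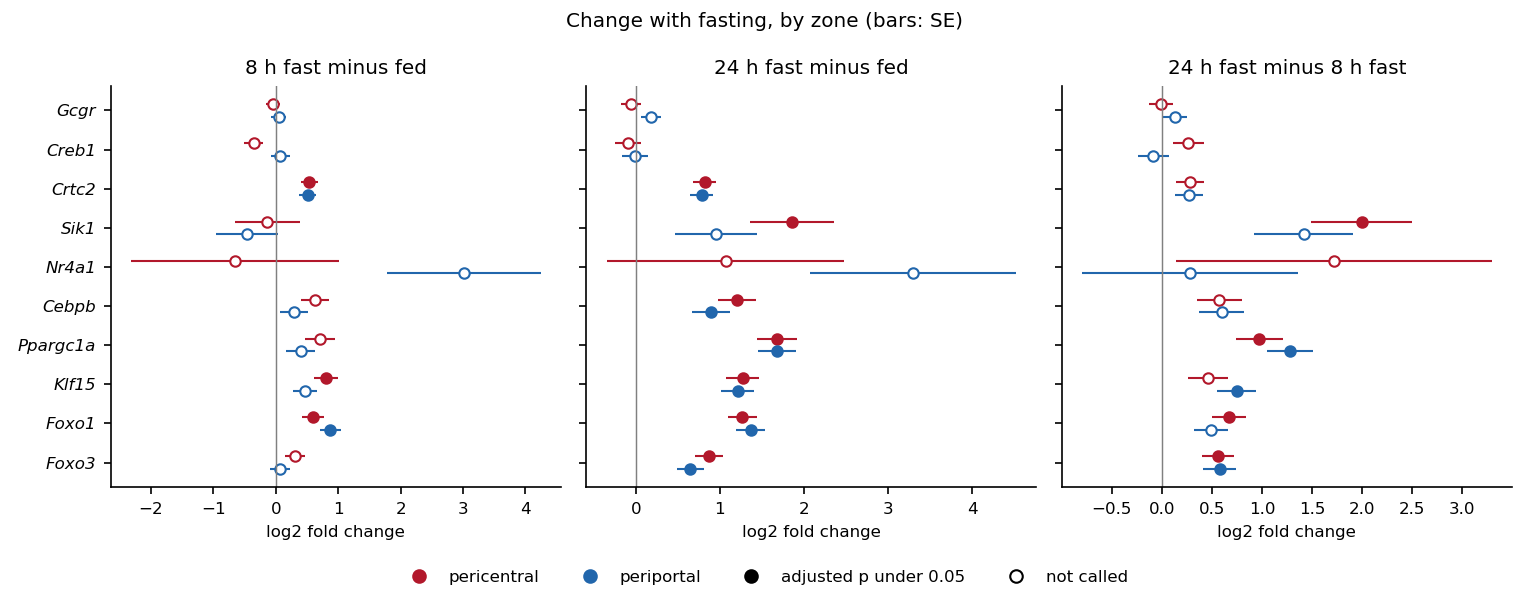
Log2 fold change (horizontal axes, each with its own range) of the 10 regulators between feeding states, in pericentral (red) and periportal (blue) hepatocytes. Bars are SEs and filled circles have an adjusted p under 0.05. At 24 h against fed, 7 pericentral and 6 periportal circles are filled, all to the right of 0.

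Gcgr, the glucagon receptor (ENSMUSG00000025127, chr11:120530699-120538986, plus strand, GRCm38), was the steadiest of the 10. Pericentral libraries had 181, 188 and 215 CPM fed, 217, 166 and 184 CPM after 8 h, and 178, 206 and 179.7 CPM after 24 h. Periportal libraries had 174, 182 and 184 CPM fed, 216, 168 and 172 CPM after 8 h, and 205, 216 and 188 CPM after 24 h. The groups overlapped except for periportal cells fed and after 24 h, where every 24 h library was higher, and the highest of all libraries was 1.31 times the lowest. No zone or feeding comparison was called. The largest fasting difference was in periportal cells at 24 h, a log2 fold change of 0.18 ± 0.12 (SE) with a 95% interval of −0.07 to 0.43. Zone differences in the 3 states lay between −0.12 and 0.11.

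Creb1, which encodes the transcription factor CREB (ENSMUSG00000025958, chr1:64532645-64604548, plus strand), was likewise not called in any comparison. Fed libraries had 15.5, 17.7 and 13.9 CPM in pericentral and 15.1, 15.1 and 16.7 CPM in periportal cells. After 8 h the values were 11.1, 13.3 and 12.5 CPM in pericentral and 18.5, 17.9 and 13.0 CPM in periportal cells, and after 24 h 13.6, 12.9 and 17.9 CPM and 13.2, 15.5 and 17.9 CPM. The pericentral 8 h libraries were the lowest group and did not overlap the fed pericentral ones. That difference was −0.35 ± 0.16 on the log2 scale (adjusted p = 0.159, edgeR), and the 8 h difference between zones was 0.43 ± 0.16 (adjusted p = 0.121, edgeR).

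Crtc2, the coactivator of CREB (ENSMUSG00000027936, chr3:90254163-90264125, plus strand), rose with fasting in both zones. Pericentral levels were 16.9, 17.4 and 15.2 CPM fed, 24.0, 25.3 and 22.7 CPM after 8 h, and 28.3, 30.6 and 28.5 CPM after 24 h, without overlap between states. Periportal levels were 12.9, 16.3 and 18.9 CPM fed, 26.1, 20.3 and 22.2 CPM after 8 h, and 32.4, 27.0 and 23.5 CPM after 24 h, where the 8 h and 24 h libraries overlapped. At 8 h Crtc2 was above fed by 0.54 ± 0.14 in pericentral cells (adjusted p = 0.015, edgeR) and 0.51 ± 0.14 in periportal cells (adjusted p = 0.0203, edgeR). After 24 h it was 1.76-fold above fed in pericentral cells (log2 0.82 ± 0.14, adjusted p = 0.000552, edgeR) and 1.72-fold in periportal cells (0.78 ± 0.14, adjusted p = 0.000934, edgeR). The further change from 8 h to 24 h was not called in either zone (0.28 and 0.27 on the log2 scale, adjusted p = 0.223 and 0.262, edgeR). Crtc2 did not differ between zones beyond its spread in any state, with log2 differences of −0.04, −0.07 and −0.08. The pericentral 8 h call was lost without fed replicate 3 (adjusted p = 0.0676, edgeR). The periportal call was lost without fed replicate 1 (adjusted p = 0.108, edgeR), without 8 h replicate 1 (adjusted p = 0.0801, edgeR) and in an edgeR fit of those groups alone (adjusted p = 0.0849).

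Sik1, the kinase that holds CRTC2 in the cytoplasm and is itself a CREB target (ENSMUSG00000024042, chr17:31844250-31855804, minus strand), rose after 24 h in pericentral cells and varied widely in periportal cells. Pericentral levels were 13.6, 10.5 and 10.9 CPM fed and 8.81, 11.0 and 12.0 CPM after 8 h, then 39.4, 41.4 and 46.1 CPM after 24 h. The 3 pericentral libraries of the 24 h fast stood clear of all 6 others of that zone. Periportal levels were 16.8, 24.2 and 51.2 CPM fed, 13.2, 26.1 and 27.8 CPM after 8 h, and 25.4, 38.5 and 115 CPM after 24 h, overlapping between every pair of states. In pericentral cells the 24 h level was 3.62-fold that of the fed state (log2 1.86 ± 0.50, adjusted p = 0.0203, edgeR) and 3.98-fold that of the 8 h fast (1.99 ± 0.51, adjusted p = 0.0286, edgeR). In periportal cells the 24 h change was 0.96 ± 0.49 (adjusted p = 0.205, edgeR). The zone difference in that change was −0.90 with an interval of −2.41 to 0.61 (adjusted p = 0.814, edgeR), so a different response of the zones was not shown. Over the 3 states Sik1 was 1.99-fold higher in periportal cells (log2 0.99 ± 0.29, adjusted p = 0.0276, edgeR), with 1.40 ± 0.50 in the fed state (adjusted p = 0.124, edgeR).

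These Sik1 calls were among the less stable ones. The 24 h call in pericentral cells was lost without pericentral fed replicate 2 (adjusted p = 0.069, edgeR), fed replicate 3 (0.0657) or 24 h replicate 3 (0.0543). The call against 8 h was lost without any 1 of the 6 libraries compared (adjusted p from 0.0506 to 0.114, edgeR) and with no filter on low counts (0.0635). The mean zone call was lost without pericentral fed replicate 2, 8 h replicate 1 or 24 h replicate 1, or periportal fed replicate 3 or 8 h replicate 2 or 3 (adjusted p from 0.0529 to 0.0605, edgeR). It was also lost with the replicate block within each state (0.82, adjusted p = 0.0628, edgeR), with no filter (adjusted p = 0.0593, edgeR) and with limma-voom (0.82, adjusted p = 0.0833). Without periportal 24 h replicate 3, the library at 115 CPM, the periportal 24 h change was 0.057 (adjusted p = 0.952, edgeR), the zone difference in that change −1.80 (adjusted p = 0.523, edgeR) and the zone difference after 24 h −0.40 (adjusted p = 0.746, edgeR). In the same fit the mean zone difference was 0.69 (adjusted p = 0.0384, edgeR) and the fed zone difference became a call (adjusted p = 0.0298, edgeR).

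Nr4a1, an orphan nuclear receptor rapidly induced by cAMP (ENSMUSG00000023034, chr15:101254269-101274795, plus strand), was near the limit of detection in most libraries, with 0 to 242 estimated counts. Pericentral levels were 0.415, 0.315 and 0.0779 CPM fed, 0.123, 0.419 and 0 CPM after 8 h, and 0, 0.331 and 1.48 CPM after 24 h. Periportal levels were 0.165, 0.599 and 0.551 CPM fed, 6.58, 3.29 and 0.885 CPM after 8 h, and 1.23, 0.748 and 11.1 CPM after 24 h. Every fasted periportal library lay above every fed library of either zone, and the 3 highest were periportal. The mean zone difference over the 3 states was 2.65 ± 0.80 on the log2 scale (adjusted p = 0.027, edgeR), higher in periportal cells. The differences in single states were not called: 0.69 ± 1.44 fed, 4.35 ± 1.48 after 8 h (adjusted p = 0.0826, edgeR) and 2.91 ± 1.19 after 24 h. Neither was the periportal change with fasting, 3.01 ± 1.23 at 8 h and 3.30 ± 1.23 at 24 h (adjusted p = 0.128 and 0.0807, edgeR).

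Other genes of acute cell stimulation or stress differed between the same libraries, the 10 listed summing to 126 to 530.5 CPM in periportal and 61 to 321 CPM in pericentral libraries. In the periportal 8 h libraries, in the order of replicates given above, Fos had 82.7, 43.3 and 16.1 CPM and Egr1 had 126, 49.8 and 26.2 CPM, both ranked as Nr4a1 was. The periportal 24 h library with 11.1 CPM of Nr4a1 and 115 CPM of Sik1 had 178 CPM of the heat shock gene Hspa1b, against 23.8 and 10.8 CPM in its 2 fellows, and it was the highest of the 3 in Jun (105 CPM against 55.3 and 48.8), Egr1 (25.5 against 21.1 and 17.1), Atf3 (3.77 against 1.29 and 2.45) and Hspa1a (21.1 against 3.30 and 0.79). Its Fos, Junb, Ier2 and Ier3 lay between those of its fellows, with Fos at 11.7 CPM, and Fosb was at 0 in all 3. Pericentral 24 h replicate 1, with 158 CPM of Hspa1b, had 0 CPM of Nr4a1. Reads of Hspa1b may be shared with its near-identical copy Hspa1a. The library with 11.1 CPM of Nr4a1 also had the highest sum of Kupffer and leukocyte markers, 22.4 CPM against 1.51 and 10.1 CPM. In the periportal 8 h libraries that sum was 0.606, 9.34 and 13.4 CPM in order of replicates, the reverse of the order of Nr4a1 (6.58, 3.29 and 0.885 CPM). The part of either in the Nr4a1 and Sik1 values was not tested. Without the library with 11.1 CPM, the periportal 24 h change of Nr4a1 was 1.14 and its 24 h zone difference 0.75 (adjusted p = 0.592 and 0.858, edgeR). The mean zone difference was then 1.93 (adjusted p = 0.0647, edgeR), and its 8 h zone difference of 4.34 became a call (adjusted p = 0.0408, edgeR). The mean call was also lost without periportal fed replicate 2 or 3, pericentral 8 h replicate 1 or 3, or pericentral 24 h replicate 2 (adjusted p from 0.0504 to 0.0549, edgeR), with no filter on low counts (adjusted p = 0.0597, edgeR) and with limma-voom (adjusted p = 0.0874). The 8 h zone difference was called by DESeq2 (adjusted p = 0.0261) and with the replicate block within each state (adjusted p = 0.0227, edgeR).

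**Figure D3:**
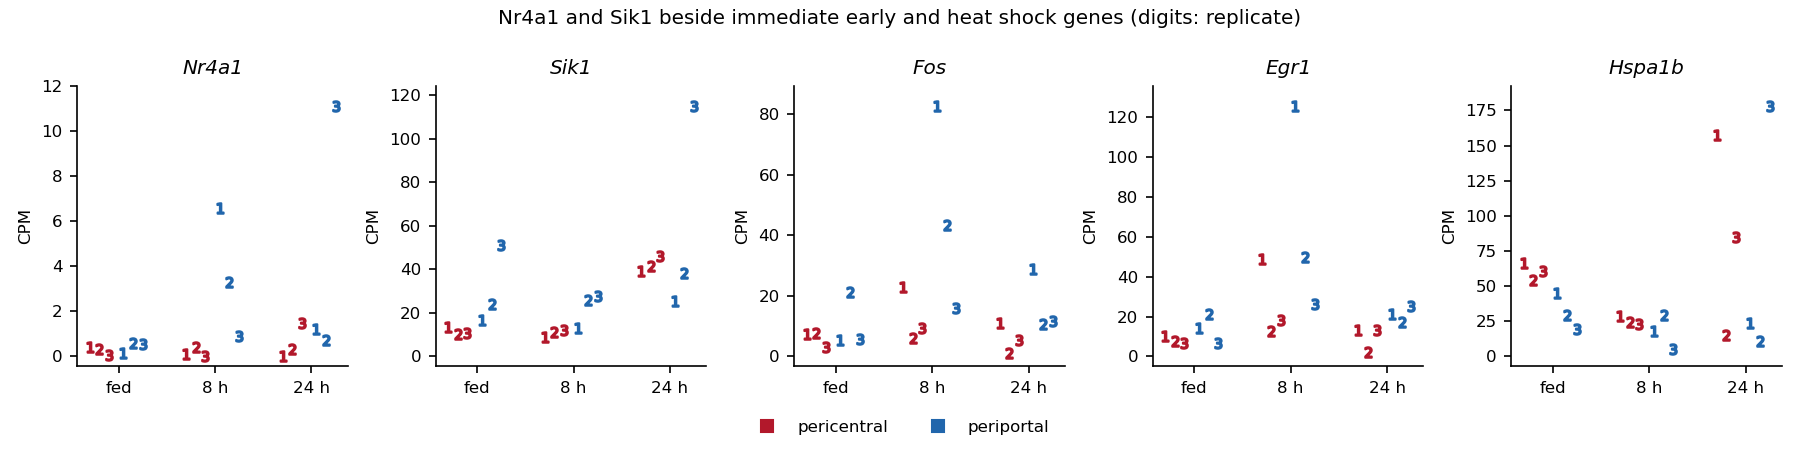
CPM (vertical axes, linear from 0) of Nr4a1 and Sik1 and of the immediate early genes Fos and Egr1 and the heat shock gene Hspa1b, by feeding state, in pericentral (red) and periportal (blue) hepatocytes. Digits are replicate numbers, which have no order. Periportal 8 h replicate 1 is highest in Fos (82.7 CPM) and Egr1 (126 CPM), and periportal 24 h replicate 3 is highest in Nr4a1, Sik1 and Hspa1b.

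Cebpb, the C/EBPbeta transcription factor that cAMP and glucocorticoids raise in liver (ENSMUSG00000056501, chr2:167688915-167690418, plus strand), was higher after 24 h in both zones. Fed libraries had 57.9, 65.4 and 77.0 CPM in pericentral and 71.3, 90.5 and 59.3 CPM in periportal cells. After 8 h the values were 119, 90.8 and 101 CPM, and 86.5, 79.1 and 106 CPM. After 24 h they were 199, 101 and 162 CPM, and 105, 159 and 146 CPM. All 6 libraries of the 24 h fast lay above all 6 fed ones, while 8 h libraries overlapped the 24 h ones in both zones. The 24 h change was 2.31-fold in pericentral cells (log2 1.21 ± 0.23, adjusted p = 0.00156, edgeR) and 1.86-fold in periportal cells (0.89 ± 0.23, adjusted p = 0.0121, edgeR). At 8 h it was 0.63 ± 0.23 and 0.30 ± 0.23 (adjusted p = 0.0782 and 0.445, edgeR).

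The lowest Cebpb value of the 24 h pericentral libraries, 101 CPM, came from the replicate 2 that stands apart in its zone markers. Without it the pericentral 24 h change was 1.43 (adjusted p = 0.000235, edgeR), the 8 h change of 0.63 became a call (adjusted p = 0.0313, edgeR) and so did that from 8 h to 24 h, at 0.80 (adjusted p = 0.0295, edgeR). The periportal 24 h call was lost without fed replicate 3 (adjusted p = 0.0596, edgeR) or 24 h replicate 2 (0.0546). The pericentral 8 h change was called by DESeq2 (adjusted p = 0.0386) and in an edgeR fit of those groups alone (adjusted p = 0.0185).

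Ppargc1a, which encodes the coactivator PGC-1alpha (ENSMUSG00000029167, chr5:51454250-51567726, minus strand), was the one regulator to differ between zones in single states. Pericentral levels were 6.15, 3.50 and 6.50 CPM fed, 8.97, 8.98 and 8.51 CPM after 8 h, and 18.4, 12.6 and 21.0 CPM after 24 h. Periportal levels were 10.4, 13.5 and 10.6 CPM fed, 10.5, 18.7 and 16.4 CPM after 8 h, and 33.5, 41.7 and 35.1 CPM after 24 h. In each state every periportal library was above every pericentral one, and the pericentral states did not overlap one another. Ordered by mean, the groups ran from pericentral fed (5.39 CPM) and pericentral 8 h (8.82 CPM) through periportal fed (11.5 CPM), periportal 8 h (15.2 CPM) and pericentral 24 h (17.3 CPM) to periportal 24 h (36.8 CPM). Of these neighbours, periportal fed overlapped periportal 8 h, which overlapped pericentral 24 h. Every periportal fed library thus lay above every pericentral library of the 8 h fast, and after 24 h pericentral cells had reached the range of periportal cells at 8 h.

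The periportal excess of Ppargc1a was 2.13-fold in the fed state (log2 1.09 ± 0.24, adjusted p = 0.00945, edgeR) and 2.13-fold after 24 h (1.09 ± 0.23, adjusted p = 0.0106, edgeR). After 8 h it was 0.78 ± 0.24 (adjusted p = 0.0563, edgeR), and over the 3 states 0.99 ± 0.14 (adjusted p = 6.04e-05, edgeR). Fasting raised it in both zones, at 24 h by 3.20-fold in pericentral (1.68 ± 0.24, adjusted p = 0.00016, edgeR) and 3.20-fold in periportal cells (1.68 ± 0.23, adjusted p = 0.000153, edgeR). The zone difference in that change was −0.00 with an interval of −0.70 to 0.70, so a smaller difference between the zones cannot be told from none. The 8 h changes, 0.71 ± 0.24 and 0.40 ± 0.23, were not called (adjusted p = 0.0662 and 0.287, edgeR), and the rises from 8 h to 24 h were, at 0.97 ± 0.23 and 1.28 ± 0.23 (adjusted p = 0.0169 and 0.00379, edgeR).

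The fed zone call of Ppargc1a held in 26 of 26 alternatives. The 24 h zone call held in 24 of 26: it was lost without periportal 24 h replicate 2 (0.99, adjusted p = 0.0567, edgeR) and with the replicate number as a block within each state (1.11, adjusted p = 0.0575, edgeR). Without pericentral 24 h replicate 2 the 24 h zone difference was 0.90 (adjusted p = 0.0451, edgeR), and the 8 h zone difference became a call (0.78, adjusted p = 0.0377, edgeR). The 8 h zone difference was also called without pericentral fed replicate 2 (adjusted p = 0.0321, edgeR) or periportal 8 h replicate 1 (0.98, adjusted p = 0.0119, edgeR), and so was the pericentral 8 h rise without the latter library (adjusted p = 0.0339, edgeR) or pericentral 24 h replicate 2 (0.0454). DESeq2 called both (adjusted p = 0.0178 and 0.0351). The pericentral change from 8 h to 24 h was lost without any of the 3 libraries of the 8 h fast or without 24 h replicate 1 or 3 (adjusted p from 0.0503 to 0.084, edgeR).

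**Figure D4:**
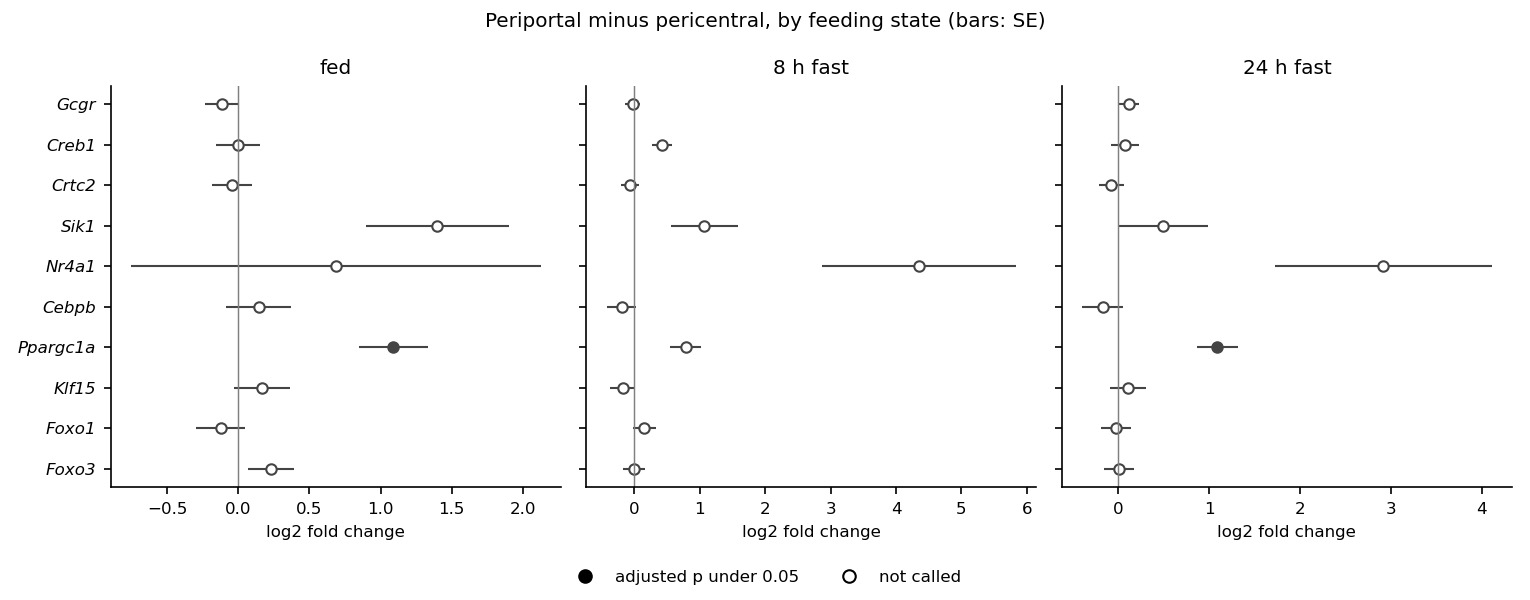
Log2 fold change between zones (periportal minus pericentral; horizontal axes, each with its own range) of the 10 regulators in the fed state and after fasts of 8 h and 24 h. Bars are SEs and filled circles have an adjusted p under 0.05. Ppargc1a is the filled circle in the fed state and after 24 h, at 1.09 in both.

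Klf15, a Krüppel-like factor that drives amino acid breakdown in fasting (ENSMUSG00000030087, chr6:90462576-90475238, plus strand), rose in both zones. Pericentral levels were 46.3, 55.3 and 60.5 CPM fed, 104, 103 and 76.3 CPM after 8 h, and 149, 111 and 131 CPM after 24 h, without overlap between states. Periportal levels were 47.7, 59.4 and 74.5 CPM fed, 59.6, 97.4 and 93.8 CPM after 8 h, and 123, 150.1 and 148 CPM after 24 h, where only the fed and 8 h libraries overlapped. The 24 h change was 2.41-fold in pericentral cells (log2 1.27 ± 0.20, adjusted p = 0.000342, edgeR) and 2.32-fold in periportal cells (1.21 ± 0.20, adjusted p = 0.000569, edgeR). At 8 h it was 0.81 ± 0.20 in pericentral cells (adjusted p = 0.0112, edgeR) and 0.47 ± 0.20 in periportal cells (adjusted p = 0.132, edgeR). From 8 h to 24 h the periportal rise was 0.75 ± 0.20 (adjusted p = 0.0316, edgeR) and the pericentral one 0.46 ± 0.20 (adjusted p = 0.155, edgeR). The timing in the zones was not shown to differ, the zone difference in the 8 h change being −0.34 with an interval of −0.93 to 0.25 (adjusted p = 0.972, edgeR). Without periportal 8 h replicate 1, the library at 59.6 CPM, the periportal 8 h change was 0.66 and called (adjusted p = 0.0258, edgeR) and the later rise was not (0.54, adjusted p = 0.0992, edgeR). The later rise was also lost without periportal 24 h replicate 2 (adjusted p = 0.114, edgeR) or 3 (0.0908), with no filter on low counts (0.0514) and in a fit of those groups alone (0.0805), and the pericentral 8 h call without fed replicate 1 (0.0563).

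Foxo1, the main insulin-restrained FOXO factor of liver (ENSMUSG00000044167, chr3:52268336-52353221, plus strand), rose in both zones at 8 h and at 24 h. Pericentral levels were 28.9, 29.6 and 29.8 CPM fed, 45.1, 50.6 and 37.9 CPM after 8 h, and 78.0, 59.0 and 75.5 CPM after 24 h. Periportal levels were 21.7, 30.5 and 28.9 CPM fed, 38.9, 52.5 and 57.4 CPM after 8 h, and 61.4, 84.7 and 62.8 CPM after 24 h. The 3 states did not overlap in either zone, and within each state the zones did. At 8 h the change was 1.51-fold in pericentral cells (log2 0.60 ± 0.17, adjusted p = 0.0273, edgeR) and 1.83-fold in periportal cells (0.88 ± 0.17, adjusted p = 0.00267, edgeR). At 24 h it was 2.41-fold (1.27 ± 0.17, adjusted p = 8.57e-05, edgeR) and 2.58-fold (1.37 ± 0.17, adjusted p = 5.68e-05, edgeR). From 8 h to 24 h the pericentral rise of 0.67 ± 0.17 was called (adjusted p = 0.0202, edgeR) and the periportal one of 0.49 ± 0.17 was not (adjusted p = 0.0894, edgeR). The mean zone difference was 0.00 with an interval of −0.20 to 0.21. Leaving out any of the 3 pericentral fed libraries or 8 h replicate 1 or 2 ended the pericentral 8 h call (adjusted p from 0.0667 to 0.109, edgeR). Leaving out pericentral 8 h replicate 1 or 3 or 24 h replicate 1 or 3 ended that from 8 h to 24 h (adjusted p from 0.0673 to 0.0831, edgeR).

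Foxo3, its paralogue (ENSMUSG00000048756, chr10:42181841-42276755, minus strand), rose after 24 h in both zones. Fed libraries had 33.4, 38.2 and 33.1 CPM in pericentral and 31.8, 45.9 and 45.1 CPM in periportal cells, and the 8 h libraries, at 44.0, 48.8 and 36.7 CPM and 39.2, 49.7 and 40.0 CPM, overlapped them. After 24 h the values were 76.5, 51.7 and 63.1 CPM and 56.0, 66.6 and 69.8 CPM, above every fed and 8 h library of either zone. The 24 h change was 1.83-fold in pericentral cells (log2 0.87 ± 0.16, adjusted p = 0.00126, edgeR) and 1.57-fold in periportal cells (0.65 ± 0.16, adjusted p = 0.0103, edgeR). The changes at 8 h were 0.31 ± 0.16 and 0.07 ± 0.16 (adjusted p = 0.248 and 0.837, edgeR). Those from 8 h to 24 h were 0.56 ± 0.16 and 0.58 ± 0.16 (adjusted p = 0.0379 and 0.0412, edgeR). The periportal 24 h call was lost without fed replicate 1 (adjusted p = 0.0617, edgeR). Both calls between 8 h and 24 h were close to the threshold and held in 15 of 25 alternatives each. The pericentral one was lost without pericentral fed replicate 1 or 2, periportal fed replicate 3, any pericentral 8 h library or pericentral 24 h replicate 1 or 3 (adjusted p from 0.0505 to 0.17, edgeR), with no filter (0.0503) and in a fit of those groups alone (0.0794). The periportal one was lost without any pericentral fed library, periportal fed replicate 2, pericentral 8 h replicate 1, periportal 8 h replicate 1 or 3, or periportal 24 h replicate 2 or 3 (adjusted p from 0.0509 to 0.131, edgeR), and with no filter (0.0534).

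Fewer of the 10 were called between zones than between feeding states. Between zones 1 of 10 was called in the fed state (8.01% of all genes), 0 after 8 h (7.14%), 1 after 24 h (4.17%) and 3 over the mean of the states (20.3%). The last were Sik1, Nr4a1 and Ppargc1a, all higher in periportal cells. At 8 h, where edgeR called 0 of 10, 3 had an unadjusted p under 0.05 (Creb1, Nr4a1 and Ppargc1a) beside 2612 of the 12477 genes, the Wald test of DESeq2 called 2 (Nr4a1 and Ppargc1a) and limma-voom called 0. For the 7 regulators without a zone call the mean difference over the states lay between −0.07 and 0.17 on the log2 scale. Its interval was −0.15 to 0.14 for Gcgr, −0.20 to 0.21 for Foxo1 and −0.35 to 0.20 for Cebpb.

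Whether the zones responded differently to fasting was tested directly, as the periportal change minus the pericentral change. None of the 10 was called by edgeR in any of the 3 such tests, none had an unadjusted p under 0.05, and DESeq2 and limma-voom called 0 of them too. The smallest unadjusted p was 0.0705, that of Creb1 for the 8 h change (0.43 ± 0.22, adjusted p = 0.917, edgeR). Over all genes edgeR called 0, 2 and 0 (0%, 0.016% and 0%) for the changes to 8 h, to 24 h and between them, with 680, 962 and 746 genes at an unadjusted p under 0.05. The intervals for the 24 h change were wide: that of Gcgr, the narrowest, ran from −0.12 to 0.59, that of Crtc2 from −0.45 to 0.38 and that of Nr4a1 from −1.79 to 6.24.

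Genes that work alongside the 10 were taken from 5 lists of 73 genes, of which 61 were tested. At 24 h, 21 of the 61 were higher and 2 lower in pericentral cells, and 15 were higher and 5 lower in periportal cells, so 37.7% and 32.8% were called, beside 21.8% and 19.6% of all genes. At 8 h, 13 were higher in each zone and 2 and 3 were lower (24.6% and 26.2%, beside 13.8% and 14.4%). With each library left out in turn, the number higher at 24 h was 16 to 22 in pericentral and 9 to 16 in periportal cells, and that at 8 h was 8 to 14 and 6 to 14. Without pericentral 24 h replicate 2, 18 were higher and 2 lower at 24 h in pericentral cells. The lists were set with earlier results of these data known and give no independent support to a direction.

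In the list of cAMP machinery (G protein, adenylyl cyclases, protein kinase A subunits and phosphodiesterases) 21 of 30 genes were tested, and 5 were higher and 2 lower at 24 h in pericentral cells, against 1 and 2 in periportal cells. Over all genes 21.8% and 19.6% were called, so the periportal share of this list was below the background. Pde4b, a phosphodiesterase that breaks down cAMP, fell in both zones at 24 h. It went from 14.8 ± 6.16 to 5.61 ± 1.80 CPM (mean ± SD, n = 3) in pericentral cells and from 9.74 ± 3.38 to 2.60 ± 0.499 CPM in periportal cells. Its log2 changes were −1.40 ± 0.38 (SE, adjusted p = 0.0184, edgeR) and −1.91 ± 0.41 (adjusted p = 0.00478, edgeR). Over the mean of the states Pde4b was lower in periportal cells (log2 −0.95, adjusted p = 0.00859, edgeR), which held in 26 of 26 alternatives. Pde7b, another, was low throughout and rose in pericentral cells from 0.785 to 3.01 CPM (1.95 ± 0.34, adjusted p = 0.000726, edgeR). Its periportal change was 0.15 ± 0.33, and the test of the difference between zones called 0 of the 61 genes. Adcy6, an adenylyl cyclase of hepatocytes, rose in pericentral cells from 13.7 to 30.3 CPM (1.14 ± 0.34, adjusted p = 0.0294, edgeR), beside 0.92 ± 0.36 in periportal cells (adjusted p = 0.0852, edgeR). Adcy1 was near 1 CPM and was called at 8 h in pericentral cells (1.17 ± 0.34, adjusted p = 0.0299, edgeR). Pde4a was higher in periportal cells, at 4.96 ± 0.508 against 1.70 ± 0.362 CPM fed and 4.35 ± 1.75 against 1.43 ± 0.148 CPM after 8 h (1.54 ± 0.31 and 1.60 ± 0.32, adjusted p = 0.00523 and 0.00521, edgeR). The pericentral call of Pde4b was lost without fed or 24 h replicate 1 (adjusted p of 0.0704 and 0.089, edgeR). That of Adcy6 was lost without any fed library or 24 h replicate 2 or 3 (0.0507 to 0.102), and that of Adcy1 without any fed library or 8 h replicate 1 or 2 (0.0502 to 0.11, edgeR), both also with no filter on low counts.

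Among 14 CREB family members, CRTC and SIK paralogues and acetyltransferases, all tested, 3 were higher and 0 lower at 24 h in each zone, a share close to the 21.8% and 19.6% called over all genes. Sik3, a further salt-inducible kinase, rose at both times in both zones, from 40.8 ± 3.55 to 64.5 ± 9.46 and 70.9 ± 6.71 CPM in pericentral cells and from 47.5 ± 3.35 to 75.7 ± 4.18 and 73.2 ± 4.26 CPM in periportal cells. Its 24 h changes were 0.80 ± 0.11 and 0.62 ± 0.11 (adjusted p = 8.91e-05 and 0.000823, edgeR). Unlike Sik1, which at 8 h had −0.14 ± 0.52 and −0.46 ± 0.50, Sik3 was thus already called at 8 h. Crtc3 was higher at 8 h in pericentral cells (0.73 ± 0.21, adjusted p = 0.0302, edgeR), beside 0.34 ± 0.21 in periportal cells. Crebbp, an acetyltransferase that binds CREB, was higher at 24 h in periportal cells (0.70 ± 0.22, adjusted p = 0.0358, edgeR), and Cited2, which binds the same acetyltransferase, at 8 h there (0.62 ± 0.18, adjusted p = 0.0311, edgeR). Creb3l3, the liver member of the CREB3 family, rose at 24 h by 0.41 ± 0.12 and 0.57 ± 0.12 (adjusted p = 0.0198 and 0.00295, edgeR) and was 0.29 ± 0.07 higher in periportal cells over the states (adjusted p = 0.00624, edgeR). Leaving out 1 library ended several of these calls. They were those of Crtc3 (any fed library or 8 h replicate 1 or 2, adjusted p from 0.0516 to 0.125, edgeR), Crebbp (fed replicate 1 or 2 or 24 h replicate 3, 0.11 to 0.168), Cited2 (fed replicate 1 or 3 or 8 h replicate 1 or 2, 0.0755 to 0.127) and, in pericentral cells, Creb3l3 (fed replicate 1 or 24 h replicate 1 or 2, 0.0537 to 0.0936).

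Of 14 genes of the FOXO axis (paralogues, kinases and targets) 12 were tested, and 7 were higher at 24 h in pericentral and 6 in periportal cells, with 0 lower (21.8% and 19.6% of all genes were called in either direction). Irs2, the insulin receptor substrate that FOXO1 raises, went from 3.07 ± 0.178 CPM fed to 41.5 ± 7.13 CPM after 8 h and 38.5 ± 13.8 CPM after 24 h in pericentral cells. In periportal cells it went from 6.35 ± 3.73 to 43.0 ± 5.77 and 52.7 ± 39.9 CPM. Its 8 h changes were 3.76 ± 0.51 and 2.75 ± 0.48 (adjusted p = 0.000387 and 0.00262, edgeR), beside 0.60 and 0.88 for Foxo1 at that time. Igfbp1, a secreted binding protein and FOXO1 target, rose by 4.23 ± 0.70 and 5.01 ± 0.70 at 24 h (adjusted p = 0.00195 and 0.000912, edgeR), with a wide periportal spread of 202 to 1126 CPM. Sgk1, a kinase that acts on FOXO proteins, rose by 1.99 ± 0.38 and 1.28 ± 0.37 (adjusted p = 0.00207 and 0.027, edgeR). Pdk4, which shuts carbohydrate out of oxidation, rose in periportal cells (2.83 ± 0.73, adjusted p = 0.0169, edgeR), beside 1.87 ± 0.66 in pericentral cells (adjusted p = 0.0645, edgeR). Cdkn1b, a cell cycle inhibitor and FOXO target, rose at 8 h by 0.59 ± 0.15 and 0.55 ± 0.15 (adjusted p = 0.0153 and 0.0231, edgeR) and was 0.35 ± 0.09 higher in periportal cells over the states (adjusted p = 0.00911, edgeR). The periportal 24 h calls of Pdk4 (adjusted p from 0.0573 to 0.0991, edgeR) and Sgk1 (0.0623 to 0.135) were lost without fed replicate 1, without 24 h replicate 3, without fed replicate 3 (Pdk4) or 2 (Sgk1), in a fit of those groups alone, and with limma-voom (Pdk4) or no filter (Sgk1). The 8 h calls of Cdkn1b were lost without pericentral fed replicate 1 or 3, and without periportal fed replicate 1 or 2 or 8 h replicate 2 or 3 or in a fit of the periportal groups alone (adjusted p from 0.0531 to 0.114, edgeR).

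Among 11 relatives of the PGC-1, C/EBP, KLF and NR4A members, 10 tested, Klf9, Klf11 and Cebpd rose at both times in both zones. Klf9, a glucocorticoid-responsive factor, had the smallest p, with 24 h changes of 1.79 ± 0.14 and 1.46 ± 0.14 (adjusted p = 8.01e-07 and 6.63e-06, edgeR). Cebpd rose by 2.34 ± 0.36 and 2.75 ± 0.38 and Klf11 by 1.68 ± 0.34 and 1.12 ± 0.33. Cebpa, the C/EBP of the differentiated hepatocyte, fell at 24 h in periportal cells, from 522 ± 46.3 to 279 ± 59.6 CPM (−0.90 ± 0.22, adjusted p = 0.0103, edgeR), while Cebpb rose there. Its pericentral change was −0.21 ± 0.22. Klf10 was higher in periportal cells at 8 h (1.97 ± 0.54, adjusted p = 0.0456, edgeR). Klf11 was higher there over the mean of the states (log2 0.57, adjusted p = 0.0484, edgeR), a call that held in 6 of 26 alternatives. Ppargc1b, the closest relative of Ppargc1a, was not called in any comparison with fed, with 24 h changes of 0.56 ± 0.39 and 0.39 ± 0.38. The calls of Klf9 held in 25 of 25 alternatives at both times in both zones. That of Klf10 held in 10 of 26 and was lost without most single libraries (adjusted p up to 0.153, edgeR). The periportal 24 h call of Cebpa was lost without 24 h replicate 3 (adjusted p = 0.0551, edgeR), and that of Klf11 without fed replicate 1 or 2 or 24 h replicate 2 or 3, with no filter, in a fit of those groups alone and with limma-voom (0.0631 to 0.186). The periportal 8 h call of Cebpd was lost with limma-voom (adjusted p = 0.0599). The 8 h calls of Klf11 were lost without any pericentral fed library, pericentral 8 h replicate 2 or 3, or periportal fed replicate 1 or 2, and in pericentral cells with no filter and with limma-voom (adjusted p from 0.0546 to 0.0965).

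Of the 4 nuclear receptors listed as partners of PGC-1alpha, Ppara and Hnf4a rose at 24 h in both zones. Ppara, the receptor of fatty acids in fasting, rose by 0.96 ± 0.15 and 0.84 ± 0.15 (adjusted p = 0.000245 and 0.000897, edgeR) and Hnf4a by 0.55 ± 0.13 and 0.57 ± 0.13 (adjusted p = 0.00749 and 0.007, edgeR). Nr3c1, the glucocorticoid receptor, fell in periportal cells (−0.55 ± 0.12, adjusted p = 0.00381, edgeR). Esrra was higher in periportal cells in the fed state and after 8 h, as Ppargc1a was in the fed state and after 24 h, at 0.46 ± 0.11 and 0.66 ± 0.11 (adjusted p = 0.0163 and 0.00144, edgeR). Ppara was lower in periportal cells over the mean of the states (−0.28 ± 0.09, adjusted p = 0.0256, edgeR). That call was lost without periportal fed replicate 1, 8 h replicate 2 or 3 or 24 h replicate 3, or pericentral 24 h replicate 2, and with the replicate block within each state (adjusted p from 0.0514 to 0.083, edgeR). The pericentral call of Hnf4a was lost without 24 h replicate 3 (adjusted p = 0.0508, edgeR) and the fed call of Esrra without pericentral replicate 2 or 3 or periportal replicate 2 (0.0685 to 0.0806).

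**Figure D5:**
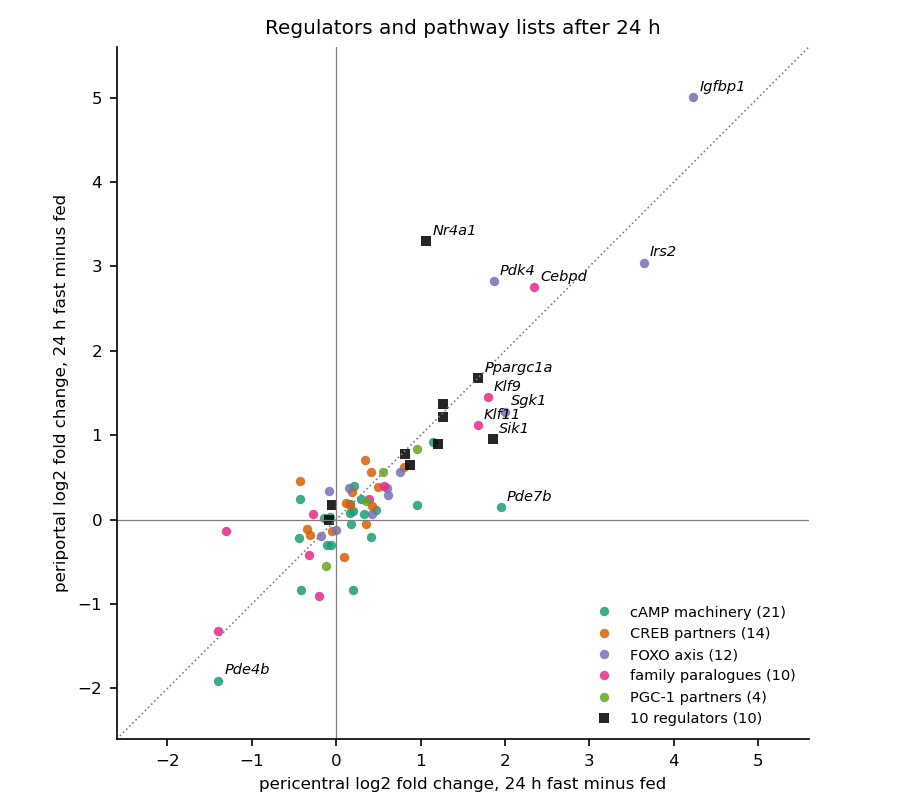
Log2 fold change from fed to 24 h in pericentral (horizontal axis) and periportal (vertical axis) hepatocytes of the 10 regulators (black squares) and the 61 tested genes of the 5 lists (circles, coloured by list). The dotted line marks equal change. Igfbp1 (4.23 and 5.01) and Irs2 (3.64 and 3.04) lie farthest out, and Ppargc1a (1.68 and 1.68) lies on the line.

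The gluconeogenic genes on which these regulators act were a list of 5: Pck1, G6pc, Pcx, Fbp1 and Tat. At 8 h, 2 of the 5 were called higher in each zone (7.27% and 7.56% of all genes). Log2 changes of the 5 then ran from −0.17 to 3.64 in pericentral and −0.10 to 1.91 in periportal cells. At 24 h, 3 were higher in pericentral and 2 in periportal cells (10.8% and 9.59%), and 0 were lower at either time. Pck1 and G6pc are given as levels beside the regulators. Pck1 had 170 ± 101 CPM in fed pericentral cells, 2119 ± 262 CPM after 8 h and 4820 ± 26.7 CPM after 24 h, and 1240 ± 847, 4662 ± 1850 and 5918 ± 370.5 CPM in periportal cells. G6pc had 125 ± 16.4, 413 ± 135 and 617 ± 156 CPM in pericentral and 376 ± 152, 1220 ± 425 and 1164 ± 380.4 CPM in periportal cells. Pck1 was 2.87 ± 0.46 higher (log2) in fed periportal than in fed pericentral cells (adjusted p = 0.00189, edgeR) and 0.30 ± 0.46 higher after 24 h, while the zone difference of Ppargc1a was 1.09 in both states. The test of the zone difference in the 24 h change called 0 of the 5 gluconeogenic genes. Its estimate was positive for 0 of the 5, with a median of −0.67, and was lowest for Pck1, at −2.57. Over all 12477 genes that test called 2 in edgeR. A different response of Pck1 in the zones was thus not called, and an equal response was not shown either. By 8 h, when Pck1 had risen by 3.64 and 1.91 and G6pc by 1.73 and 1.70, the called changes among the 10 regulators were those of Crtc2 and Foxo1 in both zones and of Klf15 in pericentral cells.

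Across the 18 libraries the genes most like each regulator were read from Pearson's r of log2 CPM over 6569 genes with a mean of at least 10 CPM. These values describe libraries that share feeding state and zone, and r is high wherever 2 genes follow the same fast. Klf15 and Foxo1 were each among the nearest 2 genes of the other (r = 0.943), and Klf15 was the nearest to Foxo3 (0.907). The nearest to Klf15 was Ell2 (0.953) and to Foxo1 the lipase gene Pnpla2 (0.951). Crtc2 was closest to Dmwd (0.951) and Ptbp3 (0.943), and Ppargc1a to Grn (0.932) and Shb (0.915). Sik1 was closest to Etf1 (0.895) and Kif21a (0.885), and Cebpb to Map1lc3b (0.872), which encodes an autophagosome protein, and Fbxo31 (0.865). The 3 regulators that changed least or were lowest had weaker neighbours: Creb1 with Spred1 (0.788) and Dhx15 (0.787), Nr4a1 with Maf (0.785) and Pabpc4 (0.78), and Gcgr with Stk25 and Lypla2 (0.699 each). Among the 45 pairs of regulators r was highest for Klf15 with Foxo1 and Foxo3 and lowest for Creb1 with Crtc2 (−0.193).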

How the data were processed

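RNA sequencing of zone-separated mouse hepatocytes was analysed in 18 libraries, 3 in each of 6 groups taken from the labels. Estimated counts for each gene and library are in the table deposited by the authors, made with kallisto 0.46.0 on build mm10 per the submitters' processing notes. The annotation and the use of strand are not given in the sources used here, so a gene and an overlapping antisense partner could not be told apart. Every column was matched to its library by the description label, and 0 columns were left without a sample.

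The deposited estimated counts were rounded to whole numbers and tested in edgeR 4.0.16 (R 4.3.3) by its quasi-likelihood F test (robust, TMM scaling, filterByExpr on the 6 groups). A single fit held all 18 libraries, with no covariate, and gave 13 contrasts. P-values were adjusted by Benjamini-Hochberg over the 12477 genes tested and called under 0.05. SEs and 95% intervals come from the variance of the fit. CPM used the TMM factors, and log2 CPM used a prior count of 2. The procedure was tested on simulated data. The 3 libraries per group limit the precision of every comparison. No 2 libraries of a group agreed within sampling noise.

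The members, the other gene lists and the tests were chosen with earlier results of these data known. The 10 regulators are named in every comparison. Of the other lists, the 4 called genes with the largest change over the 4 contrasts of a fast with fed were named, and the 3 largest over the 4 zone contrasts. The lists for other cell types, clock, and immediate early and heat shock genes were described without a test. Gene coordinates are from GENCODE vM21 (GRCm38, the same assembly as mm10), and promoter sequences from RefSeq.

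Same-numbered libraries of the zones may share a mouse, which is not stated. Their deviations from the group means correlated by 0.121, 0.165 and 0.147 in the 24 h fast, each over 0.1, and by −0.0112 to 0.0705 in the other states. Different-numbered libraries of the zones within a state had −0.121 to 0.0577. In the 24 h fast alone they had −0.121 to −0.0236, all below the same-numbered ones of that state. Same-numbered libraries of different states, which cannot share a mouse, had −0.12 to 0.206. The correlations thus cannot tell whether a mouse was shared. Values with the replicate number as a block within each state are therefore given where they change a call. The alternatives were DESeq2 size factors, TMM without the 20 most abundant genes, no filter beyond a summed count of 1, only the groups of the contrast, the replicate block, limma-voom (limma 3.58.1), DESeq2 1.42.0 with its Wald test, each library left out in turn and, added after the data were seen, the block within each state.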

Additional observations from a re-analysis of the deposited data

How the results depend on the processing

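Over all members, contrasts and alternatives, 0 called changes reversed. With each of the 18 libraries left out in turn, the number of regulators called between zones was 1 to 2 fed, 0 to 1 after 8 h, 0 to 1 after 24 h and 1 to 3 over the mean of the states. For the change from fed it was 1 to 5 and 1 to 2 at 8 h (pericentral and periportal), 6 to 7 and 5 to 6 at 24 h, and from 8 h to 24 h it was 0 to 4 and 1 to 4. With no filter on low counts 1 regulator was called over the mean zone contrast, 2 from 8 h to 24 h in pericentral and 1 in periportal cells, and more genes were then tested. limma-voom called 1 over the mean zone contrast. The Wald test of DESeq2 called 2 between zones at 8 h and 5 at 8 h against fed in pericentral cells. With only the groups of the contrast 1 was called at 8 h in periportal cells. With the replicate block within each state, the alternative added later, 1 was called between zones at 8 h (Nr4a1, 4.37, adjusted p = 0.0227, edgeR) and 0 at 24 h, and Sik1 was lost over the mean of the states (0.82, adjusted p = 0.0628, edgeR). The replicate number as 1 block over all libraries changed no call of a member, with 7 and 6 called at 24 h against fed. The cause of these shifts was not tested.

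Counts over all genes moved by more than 1.5 times with only the groups of the contrast (450 in place of 891 between zones at 8 h, and 617 for 1212 and 413 for 931 from 8 h to 24 h) and with DESeq2 (821 for 520 between zones at 24 h). For the zone differences DESeq2 called 6, 38 and 3 genes in place of 0, 2 and 0, the block within each state called 1 for the 8 h change, and both replicate blocks and limma-voom called 0 at 24 h. Another scaling moved the median of all genes by at most 0.0207 on the log2 scale. Depth limits Nr4a1 most, with 0 to 242 counts per library.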
